A study of Mus musculus with 8 samples.

Results

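The potassium channel genes, those with a symbol that starts with Kcn, were compared between the resident microglia and the invading macrophages of ischemic mouse brain. Members were all gene probes whose name in the array files starts with Kcn, which gave 144 probes of 95 genes among 34821 gene names on the array. Each gene was represented by its brightest probe, the one with the highest mean over the arrays, and a gene counted as detected on an array where that probe was well above background. Of the 95 genes, 31 were detected on no array, 24 on exactly 1 array and 14 on all 8 arrays. The 32 genes detected on at least 4 of the 8 arrays were tested.

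The samples came from C57BL/6 mice that carried transplanted bone marrow and had 30 min of focal brain ischemia (MCAo, occlusion of the middle cerebral artery) followed by 7 days of reperfusion, with no further treatment. Cells positive for GFP were the resident microglia and cells positive for RFP were the invading macrophages, and every one of the 4 animals (A, B, C and D) contributed a pair, 1 microglia sample and 1 macrophage sample. The promoters behind the fluorescent proteins, the ages of the mice and an uninjured control are not stated in the sources used. All 8 samples were thus from ischemic brain, and their amplified cDNA was read on one-colour arrays.

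Potassium channels let potassium ions leave or enter the cell along their gradient, and so set the membrane potential. Inward rectifiers (Kcnj genes) and tandem-pore-domain channels (Kcnk genes) carry most of the current at rest, voltage-gated channels (Kcna to Kcnd, Kcnh and Kcnq) open on depolarisation, and Kcnma1 and the Kcnn genes open when calcium rises. Accessory subunits such as those of the Kcnab, Kcne and Kcnip genes change how voltage-gated channels open or reach the membrane. In microglia, potassium channels are known for their part in process movement, calcium entry and the release of interleukin 1.

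Sequences of both probes and promoters bear on the results. Probes matter because several genes had more than 1 and these did not always read alike. For Kcnma1 and Kcnd1 the array carried 3 probes each and for Kcne3 it carried 2. A probe that passed the test at probe level is shown whole for each gene, and the others by their first 30 bases, 5′ to 3′ as the array files give them.
Kcnma1, probe 2: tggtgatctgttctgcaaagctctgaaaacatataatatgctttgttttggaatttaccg
Kcnma1, probe 1 (start): tgggtgggcagtcaatgtatacatgtaaat
Kcnma1, probe 3 (start): agattccttgatgcacatttctcttctttc
Kcnd1, probe 1: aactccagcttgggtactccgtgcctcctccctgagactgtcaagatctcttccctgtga
Kcnd1, probe 2 (start): tagaatcatctcagactttctagacctgag
Kcnd1, probe 3 (start): accaatcttggattcagatcgacacatttt
Kcne3, probe 2: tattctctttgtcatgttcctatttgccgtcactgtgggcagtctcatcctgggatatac
Kcne3, probe 1 (start): gaactcaactcaaccatatcaagccacagt

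The array files place these probes, in mouse build mm9, at chr14:24130916-24130975, chr14:24126279-24126338 and chr14:24118701-24118760 on the minus strand for probes 2, 1 and 3 of Kcnma1. Probes 1, 2 and 3 of Kcnd1 lie at chrX:7413570-7413629, chrX:7400644-7400703 and chrX:7415303-7415362 on the plus strand. Probes 1 and 2 of Kcne3 lie at chr7:107333062-107333121 and chr7:107332867-107332926 on the plus strand. The probes of a gene thus lie at different places, and whether each lies in a coding or an untranslated part was not determined here.

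Promoters are shown for the 2 inward rectifier genes called lower in macrophages whose promoter held a searched motif. They are RefSeq promoters of build GRCm38.p6, 250 bases before to 50 after the gene's start, at chr1:172329273-172329572 on the minus strand for Kcnj9 and at chr11:111065914-111066213 on the plus strand for Kcnj2. Capitals mark the motifs found.
Kcnj9: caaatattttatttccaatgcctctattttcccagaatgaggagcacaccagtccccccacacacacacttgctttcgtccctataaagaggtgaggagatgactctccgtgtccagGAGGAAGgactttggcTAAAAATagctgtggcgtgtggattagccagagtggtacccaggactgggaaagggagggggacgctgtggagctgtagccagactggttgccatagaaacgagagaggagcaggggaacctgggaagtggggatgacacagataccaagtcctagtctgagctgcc
Kcnj2: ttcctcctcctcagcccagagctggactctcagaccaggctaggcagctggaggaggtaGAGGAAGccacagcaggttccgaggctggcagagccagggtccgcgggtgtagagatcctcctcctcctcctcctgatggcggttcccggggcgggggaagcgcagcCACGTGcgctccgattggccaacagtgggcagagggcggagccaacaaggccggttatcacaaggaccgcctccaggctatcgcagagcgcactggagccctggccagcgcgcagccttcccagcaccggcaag

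The labels were checked against marker genes. Of 12 microglia markers 9 were lower in macrophages, 5 of them also when the animal was a block. Of 9 measured monocyte and macrophage markers 6 were higher, 3 of them also with that block. Over all tested names 4.12% were lower and 2.52% higher, and with that block 2.44% and 1.29%. Macrophage arrays still detected 10 to 11 of the 12 microglia markers, and microglia arrays 8 to 9 of the 9 monocyte and macrophage markers. Of 6 border-associated macrophage markers 1, Cd163, was lower in macrophages (limma adjusted p = 0.00556) and none was higher. The median difference of these 6 was -1.69. The macrophage array of animal B stood apart from the rest. It correlated with the other macrophage arrays at 0.854 to 0.887, while correlations among the microglia arrays were 0.940 to 0.963. The median log2 signal of 15 endothelial markers was 6.53 on it, against -1.96 to 2.79 on the other macrophage arrays and -5.57 to -3.68 on the microglia arrays, and all 15 were detected on it. The endothelial, mural, astrocyte, T and NK cell, neutrophil and erythroid lists had their highest medians on this array. Of 9 mural markers it detected all, and the other arrays 2 to 6. Several results that rest on it are given with and without it. In sorted populations, fewer cells of a type and less RNA per cell cannot be told apart.

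Of the 32 tested genes 5 were lower in macrophages than in microglia and none was higher. Those lower were the inward rectifiers Kcnj12, Kcnj9 and Kcnj2, the tandem-pore-domain channel Kcnk6 and the voltage-gated channel Kcnd1. This is 15.6% of the tested Kcn genes, against a background of 4.12% of the 19724 tested gene names called lower and 2.52% called higher (limma, adjusted p under 0.05), 6.65% in either direction. Kcnj12 passed the filter through microglia alone, as did others among all names. Over genes detected in both groups, 4 of 31 Kcn genes (12.9%) were lower, against 3.37% of 19512 names. At an unadjusted p under 0.05 (limma), 12 of the 32 tested Kcn genes were lower and 4 of the 32 higher. Of all tested names 12.5% were lower and 11.5% higher at that threshold. In 7 tested Kcn genes every macrophage array was below every microglia array, 21.9% against a background of 9.47%, and in 1 gene every macrophage array was above, 3.13% against 7.52%. The median difference over the 32 genes was -0.31 on the log2 scale, with 23 negative and 9 positive differences, and over all tested names it was 0.02. Kcnj12, which passed the filter through microglia alone, was among the 7 genes without overlap and the 23 negative differences. Neither count was repeated over genes detected in both groups.

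**Figure D1:**
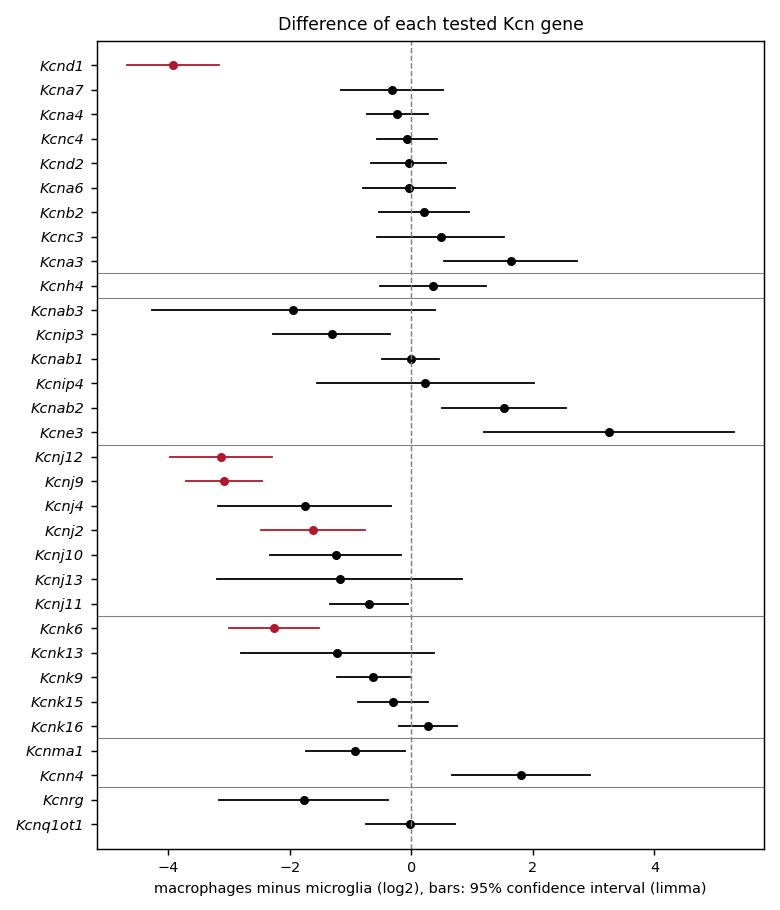
Difference between macrophages and microglia for the 32 tested Kcn genes (x axis, log2, with the 95% confidence interval from limma), grouped by channel class and sorted within it. The 5 red genes passed an adjusted p of 0.05, and all 5 lie left of 0. In the inward rectifier block, from Kcnj12 to Kcnj11, all 7 points lie left of 0, and all 7 genes were detected on all 4 microglia arrays.

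Inward rectifiers formed the class with the most calls. All 7 of the tested members among 15 had a negative difference, with a median of -1.61, and 3 passed the test. Among these was Kcnj12, which passed the filter through microglia alone. All 7 were detected on all 4 microglia arrays, which by itself meets the filter, so their common sign is no independent support. The untested members, 5 detected on no array and 3 on 1, went both ways. Kcnj15 was 3.67-fold and Kcnj16 0.393-fold in macrophages over microglia. Over all tested names the median difference was 0.02. Over all tested names 4.12% were called lower. All 4 microglia arrays detected 7 of the 15 genes, and all 4 macrophage arrays detected 2. Microglia arrays detected 7, 8, 7 and 8 inward rectifiers in animals A to D, and macrophage arrays 2, 5, 4 and 6, without overlap. Of all names, microglia arrays detected 54.8%, 56.1%, 60.6% and 55.7%. Macrophage arrays detected 50.03%, 60.6%, 56.1% and 54.6% of all names, so that these shares overlapped. The counts of detected genes in a class were not tested.

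Kcnj9 encodes a G protein-gated inward rectifier subunit that works in complexes with other members of its family. Its signal, on a log2 scale with the 75th percentile of each array set to 0 and in the order of animals A to D, was -0.15, 0.51, 0.72 and 0.94 in microglia and -2.80, -2.40, -2.59 and -2.51 in macrophages. The groups lay far apart, and macrophages were the tighter group, with 3 of their 4 arrays well above background. The gene was 8.46-fold higher in microglia (difference -3.08, SE 0.27, limma adjusted p = 0.000431, lower in macrophages in 4 of 4 animals). Its partners Kcnj3, Kcnj5 and Kcnj6, which form the pore of such channels with it, were detected on 1, 0 and 0 of the 8 arrays. The probe of Kcnj9 lies at chr1:174252224-174252283 (mm9, minus strand).

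Kcnj12 and Kcnj2 encode strong inward rectifiers, the channels that hold the membrane near the potassium equilibrium potential. For Kcnj12 the values were -2.56, -2.25, -1.26 and -2.67 in microglia and -4.90, -5.10, -5.89 and -5.37 in macrophages. Kcnj12 was well above background on all microglia arrays and on no macrophage array, so that it entered the test only through the group in which it was high, and only a bound can be given. It was at least 3.50-fold higher in microglia (limma adjusted p = 0.00199). Its probe lies at chr11:60884556-60884615 (mm9, plus strand).

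Kcnj2 read 0.63, 1.80, 1.73 and 1.76 in microglia and -0.44, 0.67, -0.49 and -0.26 in macrophages. The microglia array of animal A and the macrophage array of animal B met at about the same level, and otherwise the groups were separate. Kcnj2 was 3.06-fold higher in microglia (difference -1.61, SE 0.37, limma adjusted p = 0.0392). Blocking on the animal ended the call (adjusted p = 0.0564, in a fit that called 2.44% of all names lower), and so did 6 of the 8 fits that left out 1 array. It also ended with median centring (adjusted p = 0.0530), with no detection filter (0.0758), with the weaker detection flag (0.0586), with slide and animal as blocks (0.0717) and within either slide (0.378 and 0.238). Without the macrophage array of animal B the difference was -1.88 (adjusted p = 0.00947). Its probe lies at chr11:110936203-110936262 (mm9, plus strand).

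The other tested inward rectifiers did not pass. Kcnj10, the main glial inward rectifier, read 0.63, 0.06, -0.25 and 0.07 in microglia and -0.57, -1.88, -0.0031 and -2.02 in macrophages, and the groups overlapped (difference -1.25, limma adjusted p = 0.155). Kcnj4, another strong rectifier, was detected on all 4 microglia arrays and on 1 macrophage array, with no overlap between groups (difference -1.76, adjusted p = 0.134). Its lowest macrophage array was that of animal B, without which the difference was -1.16 (limma adjusted p = 0.0980). Kcnj11, the pore of ATP-sensitive channels, differed by -0.70 (adjusted p = 0.180). Kcnj8, the other ATP-sensitive pore, was detected on no array. Kcnj13, which ranged from -6.31 to -2.41 in macrophages, differed by -1.18 (adjusted p = 0.456). The value of -6.31 was that of animal B, and without that array Kcnj13 differed by -0.28 (limma adjusted p = 0.743).

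Among tandem-pore-domain channels, which pass potassium at rest, 5 of 14 members were tested and 1 was called. Kcnk6 encodes a channel known in macrophages as a route of potassium efflux ahead of the NLRP3 inflammasome. Its values were 5.73, 5.62, 5.63 and 6.03 in microglia and 3.87, 2.67, 4.07 and 3.37 in macrophages, all 8 well above background. Every macrophage array lay below every microglia array, the one of animal B lowest. Kcnk6 was 4.78-fold higher in microglia (difference -2.26, SE 0.32, limma adjusted p = 0.00539). Without the macrophage array of animal B the difference was -1.98 (adjusted p = 0.00219). Its probe lies at chr7:30007215-30007274 (mm9, minus strand).

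Kcnk13, the channel that carries the resting potassium conductance of microglia, was detected on all arrays. It read 1.48, 1.10, 1.27 and 0.74 in microglia and 0.74, -2.44, 0.81 and 0.60 in macrophages. In macrophages, 3 arrays lay at the lower edge of the microglia values and that of animal B far below them. The difference of -1.22 (95% confidence interval -2.81 to 0.37) did not pass (limma adjusted p = 0.325), and without that array it was -0.43 (adjusted p = 0.225). Its close relative Kcnk12 was detected on 3 microglia arrays and no macrophage array and so was not tested. Kcnk12 read -3.30, -2.95, -2.04 and -2.03 in microglia and -3.03, -3.86, -3.55 and -4.23 in macrophages. Kcnk9 differed by -0.63 (adjusted p = 0.194), and Kcnk15 and Kcnk16 by -0.30 and 0.27.

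**Figure D2:**
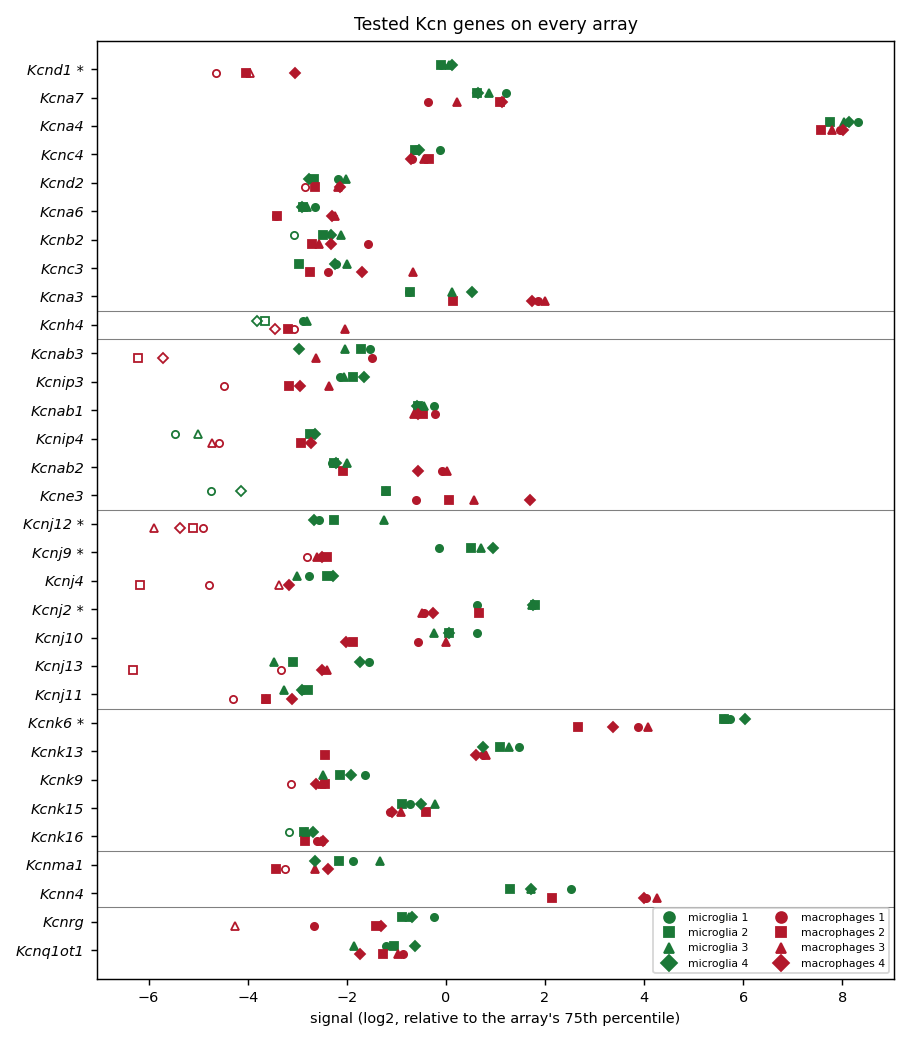
Signal of the 32 tested Kcn genes on each array (x axis, log2 scale, 0 being the 75th percentile of each array; green microglia, red macrophages, one marker shape per animal; filled points were well above background, open points were not; asterisks mark genes with an adjusted p under 0.05; lines separate channel classes). For Kcnd1, Kcnj12, Kcnj9 and Kcnk6 the colours are apart, and the red square, macrophages of animal B, lies away from the other macrophages in Kcna3, Kcnab2, Kcnk13 and Kcnn4.

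Of the 17 alpha subunits of the Kv1 to Kv4 families 9 were tested and 1 was called. Kcnd1 encodes a channel of transient, fast-inactivating potassium currents. Its brightest probe read -0.095, -0.099, 0.067 and 0.12 in microglia and -4.65, -4.04, -3.95 and -3.04 in macrophages, and 2 of the macrophage arrays were well above background. Microglia values agreed within a narrow span and every macrophage value was far below them. With macrophage arrays under background set to their floor, Kcnd1 was at least 11.9-fold higher in microglia (difference -3.92, SE 0.33, limma adjusted p = 0.000330, lower in 4 of 4 animals). A second probe, elsewhere on the gene, was well above background on 4 microglia arrays and 1 macrophage array, and was at least 7.29-fold higher in microglia (limma over all probes, adjusted p = 0.00292), and the third was detected on no array. The near relative Kcnd2 differed by -0.04 (adjusted p = 0.944).

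Kcna3, a voltage-gated channel of T cells and activated microglia, had a positive difference that did not pass the test. It read -0.74, -0.72, 0.12 and 0.52 in microglia and 1.85, 0.14, 1.99 and 1.74 in macrophages. In macrophages, 3 arrays lay above all microglia arrays, and that of animal B lay among them. The difference was 1.63 (95% confidence interval 0.54 to 2.73, limma adjusted p = 0.0840), and without that array it was 2.06 (adjusted p = 0.00893). The summed signal of 13 T and NK cell markers, a group of cells that also uses Kcna3, was 2.34 to 2.49 on microglia arrays and 3.76 to 24.8 on macrophage arrays, highest on the array of animal B, and its part in the result was not tested. Kcna2 and Kcna5, other voltage-gated genes known from myeloid cells, were detected on 0 and 1 arrays.

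One voltage-gated gene needs a remark on its probe. Kcna4, described here after its values were seen, read 7.56 to 8.32 on all arrays, with a difference of -0.23 (limma adjusted p = 0.557). Its only probe holds a run of 13 alternating T and G bases, and it is the only Kcn probe with a run of at least 10. Of the 189 gene probes on the array with such a run, 95.2% were well above background on all 8 arrays, against 38.3% of all 55681 gene probes, and their median log2 signal was 6.41, against -3.41.

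Of the 12 accessory subunits 6 were tested, and none was called. Kcne3, a small subunit that alters several voltage-gated channels, read -4.74, -1.20, -1.22 and -4.13 in microglia and -0.60, 0.06, 0.57 and 1.69 in macrophages. It was the 1 tested Kcn gene with every macrophage array above every microglia array, and 2 microglia arrays were well above background. The difference of 3.25 missed the threshold (95% confidence interval 1.20 to 5.31, limma adjusted p = 0.0704). The second probe of Kcne3 read -5.28, -4.42, -3.11 and -5.50 in microglia and -2.54, -0.92, -1.20 and -0.78 in macrophages, again without overlap. It was well above background on 1 microglia array and all 4 macrophage arrays. It was at least 4.52-fold higher in macrophages and passed the test over all probes (limma adjusted p = 0.0158, blocked on the animal 0.0363), where 2.35% of the 29364 tested probes were called higher. This probe was called in 10 of 16 alternatives, where its difference ranged from 1.10 to 3.71. Among the fits that lost the call were those without the microglia array of animal A, B or D (limma adjusted p = 0.0527, 0.0594 and 0.0590).

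Kcnab2, a cytoplasmic beta subunit of the Kv1 family, read -2.29, -2.26, -2.004 and -2.21 in microglia and -0.07, -2.08, 0.03 and -0.56 in macrophages. As with Kcna3, 3 macrophage arrays lay above the microglia and that of animal B lay among them. The difference was 1.52 (limma adjusted p = 0.0838), and without that array it was 1.99 (adjusted p = 0.00152). Kcnab1 did not differ beyond its spread (difference -0.01, 95% confidence interval -0.48 to 0.45). Kcnab3 differed by -1.94 with 2 macrophage arrays under background (adjusted p = 0.285). Without the macrophage array of animal B, its lowest, the difference of Kcnab3 was -1.21 (limma adjusted p = 0.398). Kcnip3, whose groups did not overlap, differed by -1.31 (adjusted p = 0.107).

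Among calcium-activated channels, the probes of Kcnma1 disagreed. The gene encodes the pore of the large-conductance BK channel. Its brightest probe read -1.88, -2.16, -1.33 and -2.65 in microglia and -3.24, -3.43, -2.65 and -2.38 in macrophages, where the groups overlapped (difference -0.92, limma adjusted p = 0.160). Probe 2 read -0.64, -0.62, -0.53 and -0.86 in microglia and -5.36, -6.61, -6.11 and -6.12 in macrophages. It was well above background on all microglia arrays and on no macrophage array, so that it entered the test only through the group in which it was high, and it was at least 10.1-fold higher in microglia (limma over all probes, adjusted p = 2.97e-05, against 4.10% of probes called lower). Probe 3 was detected on no array. The array files assign the probes to different RefSeq transcripts of the gene. Probe 2 was called in 11 of the 12 alternatives that tested it. Among these were the animal as a block (limma adjusted p = 0.00297) and the fit without the macrophage array of animal B. Without any 1 microglia array the probe fell under the detection filter. As the probe passed that filter through microglia alone, these fits are no independent support.

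**Figure D3:**
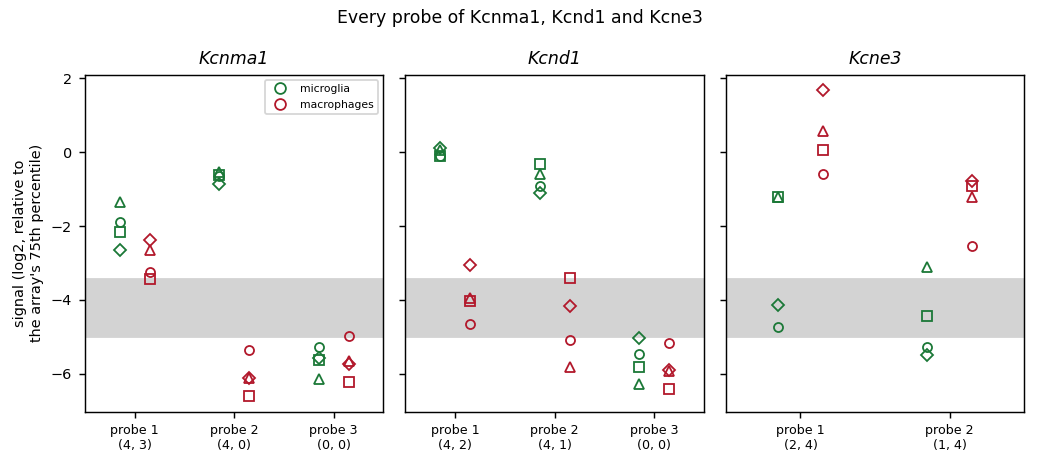
Signal of every probe of Kcnma1, Kcnd1 and Kcne3 (y axis, log2 scale, 0 being the 75th percentile of each array; green microglia, red macrophages, one marker shape per animal; in brackets the number of microglia and of macrophage arrays on which the probe was well above background; the grey band spans the lowest signals that counted as well above background on the 8 arrays). Probe 2 of Kcnma1 separates the groups while probe 1 does not, 2 of 3 Kcnd1 probes are lower in macrophages, and both Kcne3 probes are higher.

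The beta subunits of the BK channel were mostly below detection: Kcnmb1, Kcnmb2 and Kcnmb4 were detected on none, and Kcnmb3 on 1. Kcnn4, the intermediate-conductance calcium-activated channel of myeloid cells, was detected on all arrays. It read 2.52, 1.29, 1.72 and 1.72 in microglia and 4.05, 2.14, 4.26 and 4.004 in macrophages. In macrophages, 3 arrays lay above all microglia arrays, and that of animal B lay within them. The difference was 1.80 (95% confidence interval 0.67 to 2.94, limma adjusted p = 0.0698), and without that array it was 2.29 (adjusted p = 0.00334). The small-conductance relatives Kcnn1 and Kcnn3 were detected on no array.

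Without the macrophage array of animal B, Kcna3, Kcnab2 and Kcnn4 were called higher, 3 of 30 tested Kcn genes, while 8.68% of all tested names were. The same 5 genes were called lower in that fit, where 7.06% of all names were. Within slides, the only batch the array files show, the called genes kept their direction. For Kcnd1, Kcnj9, Kcnk6 and Kcnj12 every macrophage array lay below every microglia array, so no other direction was possible within a slide. The 5 genes were also called on these same arrays, so the kept direction is no independent support. The differences within slide 1, with 3 arrays, and slide 2, with 5, were -4.55 and -3.77 for Kcnd1 and -2.98 and -3.33 for Kcnj9. They were -1.81 and -2.46 for Kcnk6, and -1.66 and -1.78 for Kcnj2. For Kcnj12 they were -2.49 and -3.49, but no macrophage array was above background and the gene passed the filter through microglia alone. Its direction was thus set by the filter and is no independent support. With the slide as a block all 5 genes passed, Kcnj2 at an adjusted p of 0.0489. With normexp background correction, whose offset of 50 compresses dim signals, the differences shrank. They were -1.78 for Kcnd1, -1.89 for Kcnj9, -0.80 for Kcnj12 and -1.88 for probe 2 of Kcnma1, and all 4 kept their calls. Kcnj12 and probe 2 of Kcnma1 were again tested through microglia alone.

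Voltage-gated genes of the EAG and KCNQ families and the silent subunits, which modify other channels without forming one alone, were mostly below detection. Of 13 EAG and KCNQ genes 1 was tested, Kcnh4 (difference 0.35, limma adjusted p = 0.608), and 8 were detected on exactly 1 array. Of 10 silent subunits none was tested, and 7 were detected on no array. Kcnq1 was detected on 1 array. The antisense transcript Kcnq1ot1, which overlaps Kcnq1, was detected on all arrays and differed by -0.02 (95% confidence interval -0.75 to 0.71). Kcnrg, a regulator of Kv channel assembly that overlaps Trim13 and Dleu2, differed by -1.77 (adjusted p = 0.123). How the label distinguishes strands is not stated in the sources used, so signals of overlapping genes cannot be told apart from these files.

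The number of Kcn genes detected per array did not differ between groups beyond the spread. It was 31, 33, 41 and 35 in microglia and 21, 43, 29 and 31 in macrophages, 22.1% to 45.3% of the 95 genes, where 50.03% to 60.6% of all names were detected. The difference in means was -4 (two-sided exact permutation test, p = 0.486, with 0.0286 the smallest p it allows). The highest and the lowest array were both macrophages. Of the 24 genes detected on a single array, 10 were detected on the macrophage array of animal B: Kcna5, Kcnf1, Kcnh8, Kcnip1, Kcnj15, Kcnk3, Kcnk5, Kcnmb3, Kcnq1 and Kcnq5, of which Kcnf1, Kcnh8, Kcnip1, Kcnj15, Kcnk3, Kcnmb3 and Kcnq5 were named after their values were seen. These were 10.5% of the Kcn genes, against 3.099% of all names detected on that array alone. The other arrays had 1 to 4 such Kcn genes each, 1.05% to 4.21% of the Kcn genes, against 0.675% to 1.46% of all names. On every array the share was thus higher for Kcn genes. Among all names, too, the macrophage array of animal B had the most, 1079 against 235 to 509 on each other array. Kcnk3 read -0.58 on it and -6.29 to -5.20 on the others, and Kcna5 read -0.10 against -5.61 to -3.79. The endothelial and mural markers named above were highest on the same array, and their part in these detections was not tested.

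**Figure D4:**
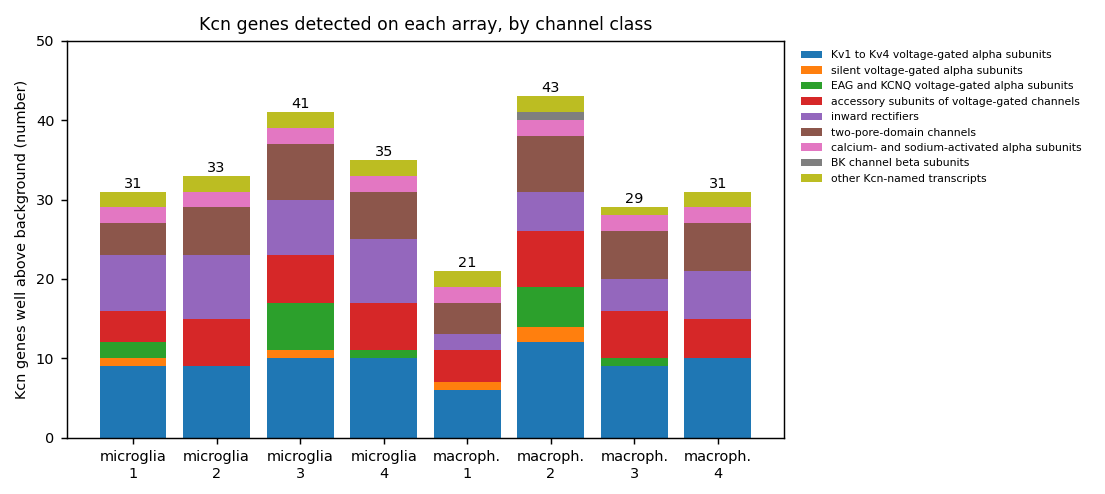
Number of Kcn genes well above background on each array (y axis; stacked by channel class, with the total above each bar; microglia 1 to 4 and macrophages 1 to 4 are animals A to D). Totals run from 21 to 43, both in macrophages. The inward rectifier part is smaller in every macrophage bar (2 to 6 genes) than in any microglia bar (7 or 8). Of all names, 54.8% to 60.6% were detected in microglia and 50.03% to 60.6% in macrophages.

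**Figure D5:**
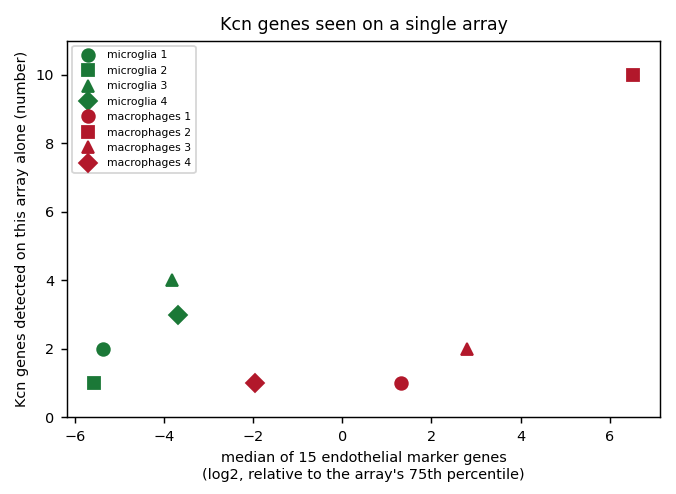
Number of Kcn genes detected on 1 array alone (y axis) against the median log2 signal of 15 endothelial markers on that array (x axis), one point per array. The macrophage array of animal B lies alone at 10 genes and an endothelial median of 6.53, and the other 7 arrays have 1 to 4 genes. Of all names, 1079 were detected on that array alone, against 235 to 509 on each of the others.

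Genes that work with potassium channels were taken from 6 lists of partners, pumps, cotransporters, calcium and anion channels, and NLRP3 genes. Of their 67 genes 66 were on the array and 47 were tested, 2 being higher and 6 lower in macrophages (limma), with a median difference of -0.02. These are 4.26% and 12.8% of the tested list genes, against 2.52% and 4.12% of all tested names. Orai2, a calcium-entry channel whose current depends on the membrane potential, was 3.96-fold higher in microglia (adjusted p = 0.00297) and Orai1, its relative, 2.55-fold (adjusted p = 0.00833). Trpm2, a cation channel opened by oxidative stress, was 8.02-fold higher in microglia (adjusted p = 0.00539). Itpr2, Slc12a2 and Slc12a9, a calcium release channel and 2 members of the cation-chloride cotransporter family, were the other 3 lower in macrophages. With the animal as a block, Itpr2 and Slc12a2 lost the call (adjusted p = 0.0576 and 0.0603). Clic4 and Lrrc8c, the latter a subunit of volume-regulated anion channels, were higher in macrophages (differences 2.37 and 4.21, adjusted p = 0.000518 and 0.0109). None of the 6 NLRP3 and efflux genes and none of the 7 tested Na,K-ATPase genes was called.

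The printed promoters and those of other named Kcn genes were searched on both strands for 5 motifs chosen with the sequences in view. These were GAGGAAG (PU.1), TAAAAAT (the core of a MEF2 site), TTGCGCAA (C/EBP), TGANTCA (AP-1) and CACGTG (E-box). The motifs do not overlap in the promoters shown. Promoters were in hand for 4 genes with a lower probe, Kcnj2, Kcnj9, Kcnj12 and Kcnma1. GAGGAAG was in those of Kcnj2 and Kcnj9, and in 13.6% of all 32851 promoters of that length. TAAAAAT was in that of Kcnj9, 117 bases before the start, and in 6.53% of all promoters. CACGTG was in that of Kcnj2 and in 7.15% of all. TTGCGCAA and TGANTCA were in none of the 4, and in 0.183% and 7.81% of all promoters. Genes with a positive difference also held motifs: CACGTG lay in the promoter of Kcnn4, 133 bases before the start. TGANTCA lay in that of Kcne3, 37 bases before the start.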

How the data were processed

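Arrays of 4 microglia and 4 macrophage samples were used. Per the labels' protocols, RNA was column-extracted and its cDNA amplified by a proprietary global PCR before Cy3 labelling, which can alter transcript proportions. Per the file headers, Agilent Feature Extraction 10.7.3.1 subtracted background and detrended each array, and the processed signal is an intensity the authors deposited without normalization between arrays. Its flags per spot served for detection. A table of log2 values deposited by the authors, with column medians of 4.604 to 4.606 and unstated normalization and centring, served as an alternative; it correlated with its arrays at 0.996 to 1.000.

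Control and outlier spots were left out, replicate spots averaged as log2 values, and the 75th percentile of every array subtracted. Of 95 Kcn names all matched the RefSeq table (GRCm38.p6), used for names. Of several probes the brightest stood for a gene. Names well above background on at least 4 of 8 arrays (19724 of 34821) were fitted with lmFit and eBayes (limma 3.58.1, R 4.3.3; tables with Python 3.11.15, pandas 2.3.3, numpy 2.4.6, plots with matplotlib 3.10.9), two-sided, Benjamini-Hochberg over all of them, and the code was tested on simulated data. A gene below background on a whole group has a bound: the brighter mean over that of the dim arrays, each taken at its lowest well-above-background signal or at the gene's own if higher. The number of arrays limits the precision. Differences are macrophages minus microglia.

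Per the labels, which name the animal of each sample, same-numbered samples share an animal; their deviations correlated at 0.0657, 0.0990, 0.0656 and -0.0132 in animals A to D. The reported fit is unblocked, and blocked values or counts stand where they change a call. Alternatives were normexp (offset 50), other scalings, filters, probe rules and flags, blocks, single slides and leaving out each array; tests of single probes and their alternatives were chosen after seeing the data. Genes were named by a rule: called genes, genes detected on all arrays of 1 group and none of the other, landmark channels of myeloid cells, and the 2 largest differences per class; a gene that the rule takes is not reported here. Kcna4, Kcnab1, Kcnd2, Kcnip3, Kcnj3, Kcnj4, Kcnj5, Kcnj6, Kcnj13, Kcnk9, Kcnk15, Kcnk16 and Kcnmb2 were named for their class or after their values were seen. Members and lists were chosen with earlier results of these data known.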

Additional observations from a re-analysis of the deposited data

Results flagged for a closer look

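Of 40 groups of 4 arrays examined among the named genes, 4 had 1 array far from the others, where chance gives about 1 in 20. The macrophage array of animal B was that array in 3 of them. Its Kcna3 signal was 0.139 on the log2 scale, against 1.74 to 1.99 on the other macrophage arrays. Its Kcnn4 signal was 2.14, against 4.004 to 4.26, and its Kcnk13 signal was -2.44, against 0.60 to 0.81. In microglia, Kcnj2 was 0.629 in animal A, against 1.73 to 1.80 in the others.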

How the results depend on the processing

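With normexp, 2 Kcn genes were called higher (Kcne3, Kcnn4) and with the mean of all probes 1 (Kcne3); Kcnma1 was then also called lower. Every probe tested for itself gave 1 higher, and the slide with replicate block 2 higher (Kcnab2, Kcnn4) and 2 lower (Kcnd1, Kcnj9). Within slide 1 there was 1 lower Kcn gene and within slide 2 there were 2, in fits of 3 and 5 arrays. Leaving out 1 array gave 0 to 3 higher and 3 to 5 lower; Kcnj12 fell under the detection filter without any 1 microglia array. Kcnd1 was called in all 24 alternatives. Over all names, 498 were higher and 813 lower, 38.0% higher. Median centring shifted the median difference by 0.21 and gave 801 higher (55.9%), and scaling to probes detected on all arrays shifted it by -0.16 and gave 1266 lower (26.2% higher). No filter gave 275 higher, and the slide block 270. The animal as a replicate block, a paired fit, gave 255 higher and 481 lower, 671 of its 736 calls being shared with the unblocked fit, and it removed Kcnj2 (adjusted p = 0.0564) and no other Kcn call. The slide with replicate block gave 252 and 466, slide 1 gave 55 and 194, slide 2 gave 8 and 114, and leaving out 1 array 154 to 1654 and 268 to 1346, both highest without the macrophage array of animal B. Pathway genes were 1 higher and 3 lower with the slide and replicate block, 0 and 0 within each slide, and 2 to 4 and 4 to 10 without 1 array. Counting detection by the weaker positive-and-significant flag turned the detection difference to 1.75 (p = 0.629, exact permutation); paired by animal it was -4 (exact p = 0.5), and without 1 array -8 to -0.67.

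Among single genes, differences that missed the threshold changed sign in a few settings. Kcnab3 was 0.14 within slide 1, Kcnh4 -0.16 and Kcnj11 0.052 with the mean of probes. Kcnq1ot1 was 0.19 with median centring, 0.081 with quantile normalization, 0.023 with the mean of probes, 0.081 with the deposited log2 table, 0.044 with the slide block, 0.047 with slide and replicate block, 0.27 within slide 1, and -0.24 to 0.17 without 1 array. The cause of these changes was not tested. Signals near background limit the inward rectifiers other than Kcnj2 and Kcnj10. For Kcnj9 this holds in macrophages, where the mean was -2.58 and 3 of 4 arrays were well above background.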
